A study of Mus musculus with 8 samples.

Results

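Olfactory receptor (Olfr) genes were examined in maps of 5-hydroxymethylcytosine (5-hmC) from mouse pro-B cells. They were taken as the protein-coding genes whose symbol starts with Olfr on chromosomes 1 to 19 in the GENCODE M21 annotation of the genome build GRCm38 (mm10). The rule gave 1128 of the 20807 protein-coding genes on these chromosomes, and the 7 Olfr genes on chromosome X lie outside it. Each gene was measured over a window of its gene body with 2 kb on each side, with a median length of 9994.5 bp. The gene bodies of 58 clusters lay less than 100 kb from their neighbours, and 18 genes stood alone. Chromosome 2 holds 294 of the genes, chromosome 7 holds 244 and chromosome 9 holds 132. In all 17 chromosomes carry members, and chromosomes 12 and 18 carry none. The symbols of 40 members mark a pseudogene although the annotation gives them a coding sequence.

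Olfactory receptors are G protein-coupled receptors that bind odorants on sensory neurons of the nose, where each neuron expresses a single receptor gene and keeps the others silent. Their coding sequence typically lies in a single exon, with noncoding exons upstream. Class I receptors resemble those of fish and sit in a large array around the beta-globin genes on chromosome 7, while class II receptors are spread over many chromosomes. 5-hmC is made by TET enzymes from 5-methylcytosine, which in mammals is found mostly at CpG dinucleotides. Among the members, 1077 had 1 coding exon, and the median coding length was 939 bp.

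The assay was hMeDIP-seq, in which sheared genomic DNA is pulled down with an antibody against 5-hmC and sequenced. Pro-B cells, the B220+CD43+IgM- fraction of the bone marrow, were sorted from C57BL/6 mice 4 to 6 weeks old. The HDAC7-deficient group had 2 libraries, from Hdac7 fl/- mice with mb1-Cre, a recombinase driven from the Cd79a locus and thus active in the B lineage alone. The group labelled wild-type also had 2 libraries, which the study's methods describe as Hdac7 +/- littermates, so that these controls had 1 working copy and shared 1 null allele with the deficient mice. The labels number the libraries but do not say whether they came from separate or pooled animals, and every p-value below measures the spread between these libraries alone. More cells with the mark and more mark per cell cannot be told apart in such bulk DNA.

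The deposited lists hold positions of peaks without heights, so depth is unknown and no counting interval can be given. On chromosomes 1 to 19 the libraries had between 1246432 and 1364224 peaks, which covered between 9.30% and 10.8% of the sequence. HDAC7-deficient replicate 2 stood apart on chromosomes 14 to 19, where its peak density was 1.11 times that on chromosomes 1 to 13. The ratio was between 0.993 and 0.996 in the other 3 libraries. Values without chromosomes 14 to 19 are therefore given for the genotype comparisons of window totals, calls per gene, regions and cluster counts.

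Stretches of coding sequence that lay under a peak of all 4 libraries numbered 192, in 154 members (13.7%). The widest of them are shown because the results below turn on the coding sequence. They are read 5′ to 3′ on the strand of the gene from GRCm38, with the CpG dinucleotides in capitals. Olfr346 is on the + strand at chr2:36688362-36688653, Olfr406 on the + strand at chr11:74269672-74269930, Olfr371 on the + strand at chr8:85230593-85230841 and Olfr509 on the - strand at chr7:108646174-108646400.
Olfr346: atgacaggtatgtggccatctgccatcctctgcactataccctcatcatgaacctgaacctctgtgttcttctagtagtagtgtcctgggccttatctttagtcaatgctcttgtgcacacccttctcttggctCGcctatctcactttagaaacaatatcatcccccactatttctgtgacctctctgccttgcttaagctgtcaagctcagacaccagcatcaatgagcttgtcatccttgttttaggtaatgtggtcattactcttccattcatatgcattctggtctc
Olfr406: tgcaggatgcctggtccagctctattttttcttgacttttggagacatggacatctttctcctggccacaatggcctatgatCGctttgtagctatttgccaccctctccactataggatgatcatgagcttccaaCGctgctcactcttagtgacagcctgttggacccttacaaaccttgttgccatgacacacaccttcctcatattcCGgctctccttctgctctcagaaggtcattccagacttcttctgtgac
Olfr371: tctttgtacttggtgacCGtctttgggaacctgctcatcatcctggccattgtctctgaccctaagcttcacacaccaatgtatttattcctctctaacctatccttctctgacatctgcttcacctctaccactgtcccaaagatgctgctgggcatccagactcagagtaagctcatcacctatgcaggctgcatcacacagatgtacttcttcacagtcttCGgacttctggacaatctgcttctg
Olfr509: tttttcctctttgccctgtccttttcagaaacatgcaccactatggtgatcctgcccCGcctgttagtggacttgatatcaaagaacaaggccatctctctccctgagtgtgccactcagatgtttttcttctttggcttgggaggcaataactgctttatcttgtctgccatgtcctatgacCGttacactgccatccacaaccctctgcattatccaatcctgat

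The stretch of Olfr346 holds 1 CpG in 292 bp, that of Olfr406 holds 3 in 259 bp, and those of Olfr371 and Olfr509 hold 2 each in 249 and 227 bp. The peaks around the Olfr346 stretch were 322 and 433 bp wide in the wild-type replicates and 692 and 351 bp wide in the HDAC7-deficient replicates. Over all 192 stretches the CpG density was 10.5 per kb, against 8.78 per kb in the whole coding sequence of the members, and 99 of the stretches held no CpG at all. Their median width was 77.5 bp. A peak marks where pulled-down fragments piled up, and with sheared fragments the modified base can lie beside it.

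The coding sequence of the olfactory receptor genes carried more 5-hmC peak cover than the rest of their windows in every library. Of the coding bases, 10.5% and 17.2% lay under peaks in the 2 wild-type libraries (replicate 1, then replicate 2), and 12.2% and 18.4% did so in the 2 HDAC7-deficient ones. The rest of the window was covered to 9.31%, 10.3%, 9.06% and 10.8% in the same order, which is kept wherever 4 values follow each other below. The ratio was 1.46 ± 0.276 (SD, n = 4 libraries), above 1 in 4 of 4, with a two-sided p of 0.125 in an exact sign-flip permutation test, the smallest that 4 libraries allow. In the other protein-coding genes the order was turned round, with a ratio of coding sequence to the rest of 0.831 ± 0.0494 that was below 1 in 4 of 4 libraries. The coding sequence of the members was 44.7% G or C, with 8.78 CpG per kb and 6.08% of its bases masked as repeats. The rest of their windows had 37.1% G or C, 4.32 CpG per kb and 33.3% masked. The part of these differences in the contrast was not tested.

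The size of the contrast varied within each genotype. The ratios were 1.12 and 1.66 for wild-type and 1.35 and 1.71 for HDAC7-deficient cells, each in the order of the replicates. The coding bases under peaks of the HDAC7-deficient libraries were 1.11 ± 0.497 times those of the wild-type libraries (SD, n = 2 per genotype), with a two-sided exact permutation p of 0.667, and 2 against 2 libraries cannot go below 0.333. Against introns of the same genes the coding sequence was covered 1.56 ± 0.289 times as much, and against the 2 kb upstream 1.36 ± 0.277 times, both above 1 in 4 of 4 libraries. Against the 2 kb downstream the ratio was 1.19 ± 0.244 and fell below 1 in wild-type replicate 1, at 0.893.

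**Figure D1:**
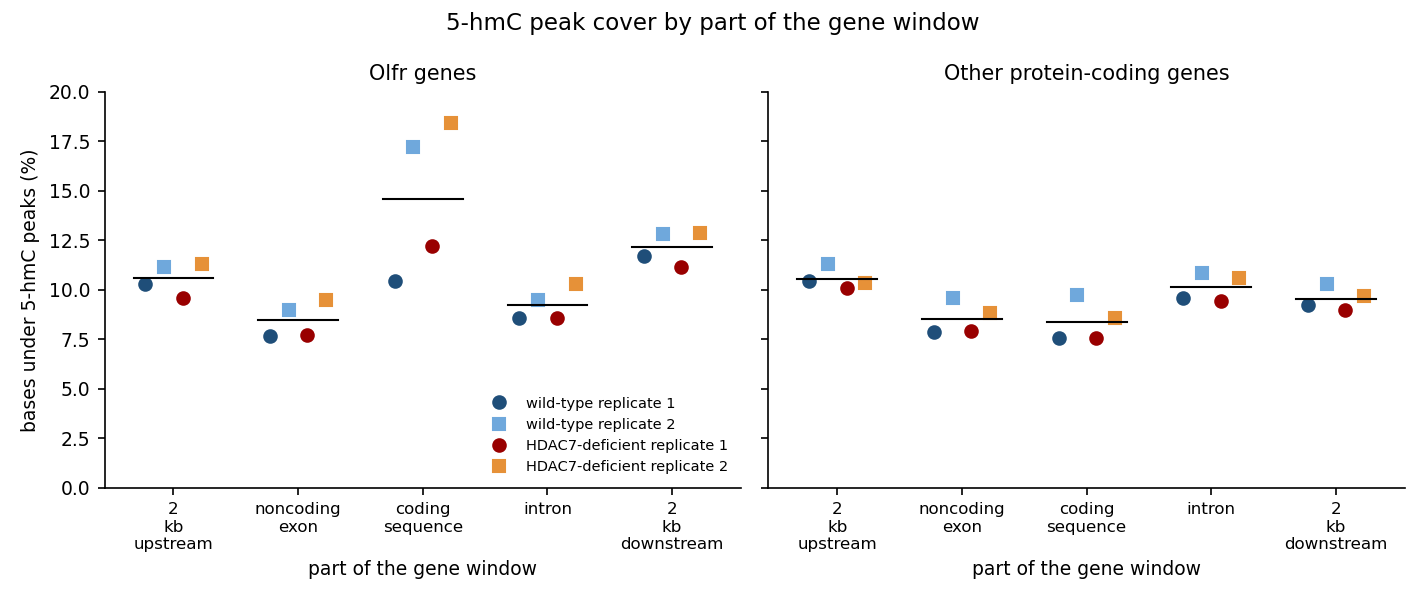
Share of bases under 5-hmC peaks (%) in each part of the gene window, for the 1128 Olfr genes and for the 19679 other protein-coding genes. Each point is a library and the black line is their mean. In the Olfr genes the coding sequence reaches 17.2% and 18.4% in replicate 2 of the wild-type and HDAC7-deficient groups, above every other part in those libraries, while in the other genes the coding sequence lies between 7.54% and 9.76%.

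A step in peak cover marked the start of the coding sequence. In the 250 bp before the first coding base 4.91%, 7.19%, 5.11% and 8.06% of the bases lay under peaks. In the 250 bp from that base on these shares were 15.2%, 20.2%, 16.8% and 22.9%, the highest of any bin within 5 kb in every library. The step was 3.01 ± 0.224-fold (SD, n = 4), from 2.81 to 3.29, and above 1 in 4 of 4 libraries. The other protein-coding genes had a step of 1.11 ± 0.0253-fold at the same place, although their first 250 coding bp hold 48.9 CpG per kb and those of the olfactory receptor genes 6.66. Cover in the olfactory receptor genes came back down within the bin from 750 to 1000 bp, in which the median coding sequence of 939 bp ends. It was 10.8%, 18.5%, 13.2% and 19.4% from 500 to 750 bp and 5.03%, 9.89%, 6.08% and 8.30% from 750 to 1000 bp. From 1000 to 1250 bp downstream of the first coding base it was between 4.92% and 6.94% of the bases.

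**Figure D2:**
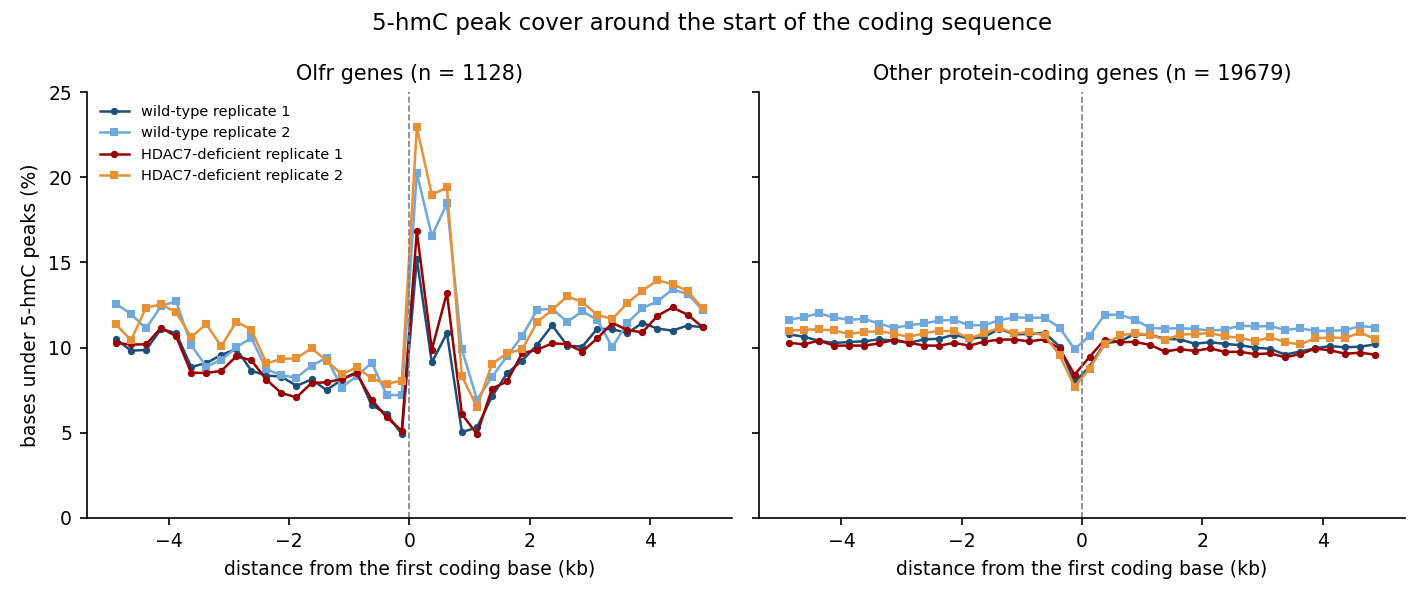
Share of bases under 5-hmC peaks (%) in bins of 250 bp from 5 kb before to 5 kb after the first coding base, each line a library. The Olfr genes jump from between 4.91% and 8.06% before the start to between 15.2% and 22.9% after it, whereas the other protein-coding genes stay between 7.70% and 10.7% across the same bins.

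The coding sequences richest in CpG had more peak cover than the poorest, without a steady rise between them. With the members sorted into 4 bins by the CpG density of the coding sequence, 7.21% to 14.7% of the coding bases were covered in the lowest bin (280 genes, up to 5.16 CpG per kb), over the 4 libraries. The next bin was covered to 10.2%, 15.97%, 12.4% and 19.8% and the one above it to 9.31%, 18.3%, 10.5% and 17.8%, lower in 3 of 4 libraries. In the highest bin (283 genes, from 10.7 CpG per kb) the range was 15.1% to 21.4%. The highest bin was above the lowest in each of the 4 libraries. Since olfactory receptor genes resemble each other, reads from near-identical copies could be placed on the wrong gene, and 15.2% of the 50-bp words inside the coding sequences occurred more than once among the members' windows. In the 371 members without any such word in the coding sequence the cover of coding sequence was 11.1%, 18.6%, 13.6% and 19.1%, and its ratio to the rest of the window was 1.52 ± 0.272, above 1 in 4 of 4 libraries. Over whole windows, the 167 members with 10% or more repeated words had 0.844 ± 0.00844 times the cover of the other 961, below 1 in 4 of 4 libraries.

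Counted per gene, 519, 687, 595 and 697 members had a peak in the coding sequence. The coding sequence of 266 members met a peak in all 4 libraries and that of 170 met none in any. Over the whole window, 1072 members (95.04%) had a peak in all 4 libraries, against 95.5% of the other protein-coding genes, whose windows are longer (median 23366 bp). Within the range of window length from 4960 to 16685 bp it was 95.6% of 1014 members against 91.5% of 6983 other genes. In each library the median member had 5 peaks, and its share of bases under peaks was 8.99%, 10.5%, 8.91% and 10.8%. Shares per gene differed widely between libraries, with Spearman's rho between 0.425 and 0.653 over the 1128 members for the 6 pairs of libraries, as a description over genes that share libraries and in part overlap.

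The highest mean shares of the window under peaks belonged to Olfr460, Olfr492, Olfr544, Olfr1282 and Olfr519. Olfr460, on chromosome 6, was covered to 28.6%, 35.0%, 22.4% and 37.0%. Olfr544, a class I receptor that binds azelaic acid, was covered to 33.3% and 19.4% in the wild-type replicates and to 22.3% in both HDAC7-deficient replicates. No library covered more than 37.0% of any member's window. Olfr1506, Olfr247 and Olfr1453 had no peak in any library, and were the 3 members of which this is true.

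Peak density over the whole windows was close to that of the other genes. The olfactory receptor windows held 5810, 6558, 6530 and 6482 peaks in 11721166 bp, which is 0.496, 0.560, 0.557 and 0.553 peaks per kb. Relative to the windows of the other protein-coding genes the density was 0.968 ± 0.0438 (SD, n = 4), above 1 in HDAC7-deficient replicate 2 alone, at 1.02 (two-sided exact sign-flip permutation p = 0.25). The relative share of bases covered was 1.03 ± 0.0483, above 1 in 3 of 4 libraries (p = 0.25 in the same exact test). With the windows cut back to the gene bodies the relative cover was below 1, at 0.973, and with peaks of at least 200 bp alone the relative density was above 1, at 1.12.

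The olfactory receptor windows are poor in CpG, with 4.72 per kb against 10.2 per kb in the other windows. Against other genes of the same CpG density they had more peaks. The members were split into 4 bins of 282 by the CpG density of the window. In the 3 lower bins they had 1.14 ± 0.0603, 1.18 ± 0.0214 and 1.18 ± 0.0102 times the peaks per kb of the other genes in the same range of CpG density, above 1 in 4 of 4 libraries each. In the highest bin, above 5.22 CpG per kb, the ratio was 1.03 ± 0.0414 and above 1 in 3 of 4 libraries. The other genes numbered 179, 372 and 855 in the 3 lower bins and 14847 in the highest. The vomeronasal receptors described below were not taken out of the other genes, and their part in these ratios was not tested.

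Among chemoreceptor families, the olfactory receptors had the denser peaks. The vomeronasal receptors Vmn1r (208 genes) and Vmn2r (121 genes), which detect pheromones, have nearly the CpG density of the olfactory receptors, 4.41 and 4.57 per kb. Olfactory receptor windows had 1.28 ± 0.0514 times the peak density of Vmn1r windows and 1.29 ± 0.0408 times that of Vmn2r windows, above 1 in 4 of 4 libraries. The trace amine receptors (Taar, 15 genes) and bitter taste receptors (Tas2r, 35 genes) were also below them, at ratios of 1.16 ± 0.135 and 1.14 ± 0.0720 in 4 of 4 libraries. Repeated 50-bp words made up 5.48% of the words in olfactory receptor windows, 15.3% in Vmn1r windows and 21.5% in Vmn2r windows, and their part in this difference was not tested. The 271 Olfr pseudogenes were denser in peaks than the coding members, which stood at 0.895 ± 0.0335 of them, and so was the sequence of the clusters outside the gene windows, against which the members stood at 0.922 ± 0.00671, both below 1 in 4 of 4 libraries.

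**Figure D3:**
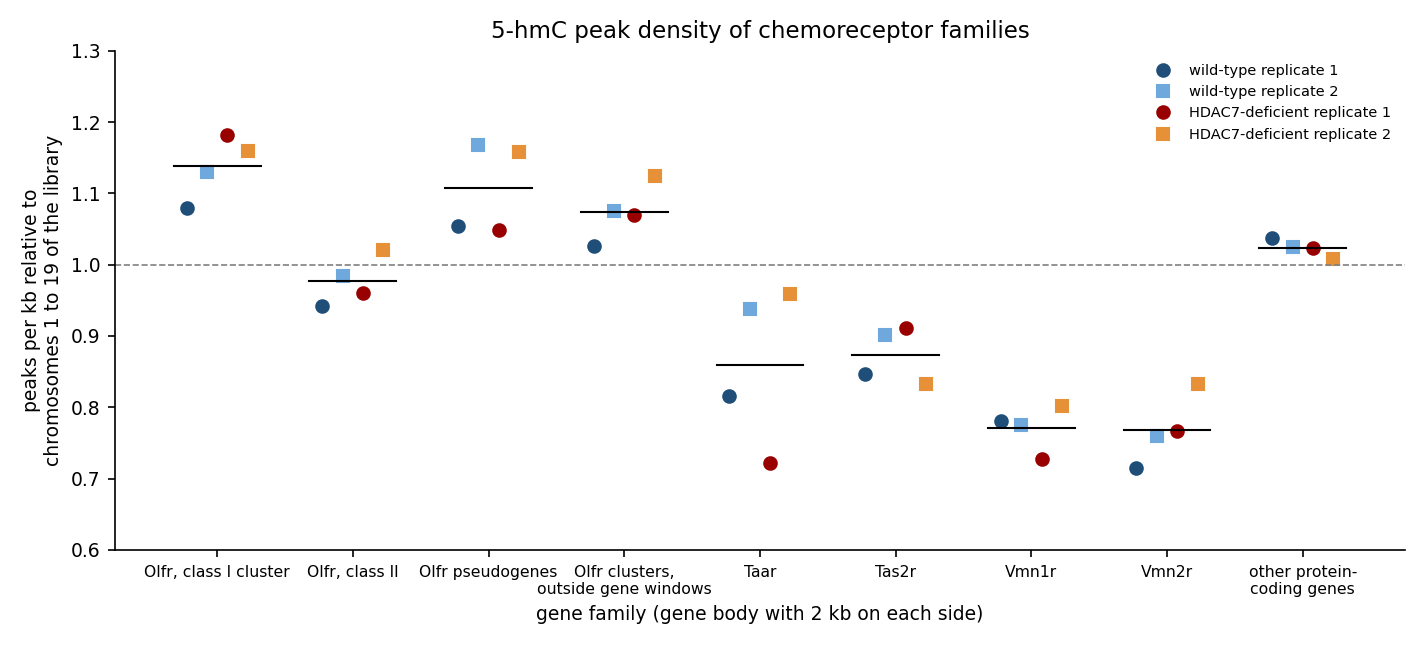
Peaks per kb of each family's windows relative to chromosomes 1 to 19 of the same library, each point a library and each line a mean. The class I cluster lies between 1.08 and 1.18 and no Vmn1r or Vmn2r point lies above 0.832. The y axis starts at 0.6.

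The class I array had a higher peak density than the rest of the family. The array, 95 genes from Olfr543 to Olfr649 at chr7:102474579-104197985 with all 7 annotated Hbb genes inside it, had 0.562, 0.635, 0.673 and 0.621 peaks per kb of gene window. The other 1033 members, mostly of class II, had 0.490, 0.553, 0.547 and 0.547. The ratio was 1.17 ± 0.0440 (SD, n = 4), above 1 in 4 of 4 libraries. When the array was extended to the neighbouring clusters as far as Olfr692, a choice made after seeing the data, it held 129 genes and the ratio was 1.14. In the coding sequence alone the class I array was covered 1.38 ± 0.138 times as much as the other members, with shares of 13.96%, 23.3%, 18.1% and 21.9%. The array also has the denser CpG, 5.41 against 4.66 per kb of window and 13.5 against 8.34 per kb of coding sequence, and the part of this in the difference was not tested.

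Among the 39 clusters of 5 or more genes, 22 had a larger share of bases under peaks than their own chromosome in all 4 libraries, 2 had a smaller share in all 4, and 15 lay on both sides. The largest cluster, 220 genes from Olfr996 to Olfr1272 on chromosome 2, stayed near its chromosome, at 0.975, 0.984, 0.977 and 1.01 times its share. The other large clusters were the class I array with a mean of 1.11, the 95 genes from Olfr160 to Olfr986 on chromosome 9 with 1.04, the 60 genes from Olfr9 to Olfr827 on chromosome 10 with 0.964 and the 49 genes from Olfr90 to Olfr136 on chromosome 17 with 1.09. The last of these runs into the H2-M genes of the major histocompatibility complex, 2 of which lie inside it. The cluster on chromosome 10 was below 1 in all 4 libraries.

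Of these 39 clusters the most covered relative to its own chromosome lay at the start of the T cell receptor alpha gene segments on chromosome 14. Its 7 genes, Olfr1513 to Olfr1507 at chr14:52345495-52497749, were covered to 11.5%, 12.6%, 12.2% and 15.5%, or 1.33, 1.25, 1.41 and 1.44 times the share of the chromosome in each library. The receptor gene at its edge, Olfr1507 (known as MOR28), was itself at only 2.97%, 2.15%, 4.90% and 6.32%. Next came the 27 genes from Olfr338 to Olfr366 on chromosome 2, with a mean of 1.26, and the 9 genes from Olfr288 to Olfr279 on chromosome 15, with 1.25. The least covered of the 39 by the same measure were Olfr441 to Olfr47 and Olfr453 to Olfr444 on chromosome 6, with means of 0.831 and 0.917. Olfr310 to Olfr292 on chromosome 7, with 0.915, was also among them. Of these 3 only the first was below 1 in all 4 libraries. Over the 39 clusters the CpG density and the mean relative share had a Spearman's rho of 0.309, given as a description.

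**Figure D4:**
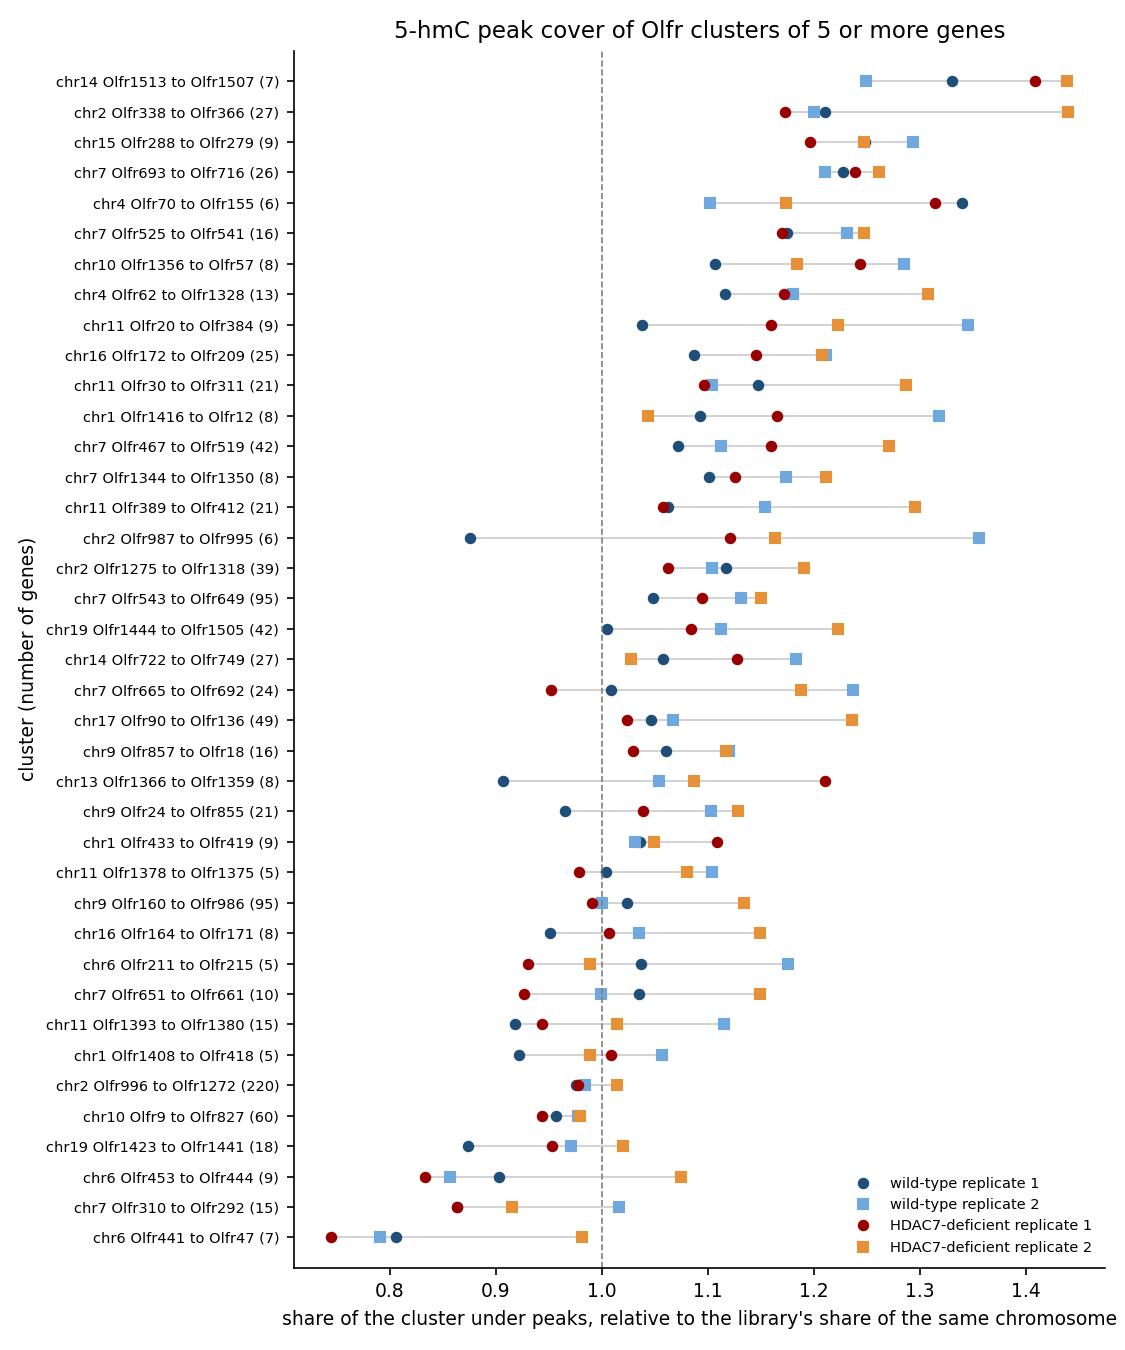
Share of bases under 5-hmC peaks in the 39 clusters of 5 or more Olfr genes, divided by the share of the same chromosome in the same library, each point a library. The number of genes is in brackets. The cluster at the start of the T cell receptor alpha segments is at the top, between 1.25 and 1.44, and the bottom cluster lies between 0.744 and 0.981.

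The question of the study was how 5-hmC depends on HDAC7. Over all olfactory receptor windows the genotypes did not differ beyond the spread between replicates. The peak count of the HDAC7-deficient libraries was 1.05 ± 0.0902 times that of the wild-type libraries (SD propagated from n = 2 per genotype, two-sided exact permutation p = 1). Peak bases were 1103087 and 1285354 in the wild-type replicates and 1095772 and 1345727 in the HDAC7-deficient replicates, a ratio of 1.02 ± 0.185 (exact permutation p = 1). On chromosomes 1 to 13 the ratios were 1.04 ± 0.0941 for peaks and 1.005 ± 0.169 for bases. On chromosomes 14 to 19 the windows had 1116 and 1232 peaks in the wild-type and 1264 and 1325 in the HDAC7-deficient replicates, a ratio of 1.10 ± 0.0854 without overlap (exact permutation p = 0.333, the smallest possible). The direction of the total rested on wild-type replicate 1, without which the ratio of peaks was 0.992 and that of bases 0.950, and for bases also on HDAC7-deficient replicate 2, without which it was 0.918.

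Gene by gene, more members were higher than lower in the HDAC7-deficient libraries, while the other genes went the other way. A gene was counted as higher when both HDAC7-deficient libraries had more peak bases in its window than both wild-type libraries, and as lower in the reverse case. Of the 1128 members 182 (16.1%) were higher, against 10.6% of all protein-coding genes, and 138 (12.2%) were lower, against 17.8%. The counts carry no p-value, since 2 against 2 libraries cannot pass a test per gene. Among the 1014 members with windows from 4960 to 16685 bp, 16.2% were higher and 12.3% lower, against 11.6% and 18.5% of the 6983 other genes with windows in that range. On chromosomes 1 to 13, without the raised part of HDAC7-deficient replicate 2, 142 of 924 members (15.4%) were higher and 121 (13.1%) lower, against 9.91% and 19.6% of the 15244 other genes there. With peaks of at least 200 bp alone the counts were nearly even, with 145 members higher and 147 lower. The order of the counts also rested on 2 libraries. With a single wild-type library to compare, replicate 2, 351 members were higher and 450 lower, and with a single HDAC7-deficient library, replicate 1, 262 were higher and 410 lower. Peaks covered 10.8% of chromosomes 1 to 19 in wild-type replicate 2 and 9.30% in HDAC7-deficient replicate 1. No count over all protein-coding genes is set beside these alternatives or the wider peaks. Whether other genes changed their order in the same way is therefore not shown.

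**Figure D5:**
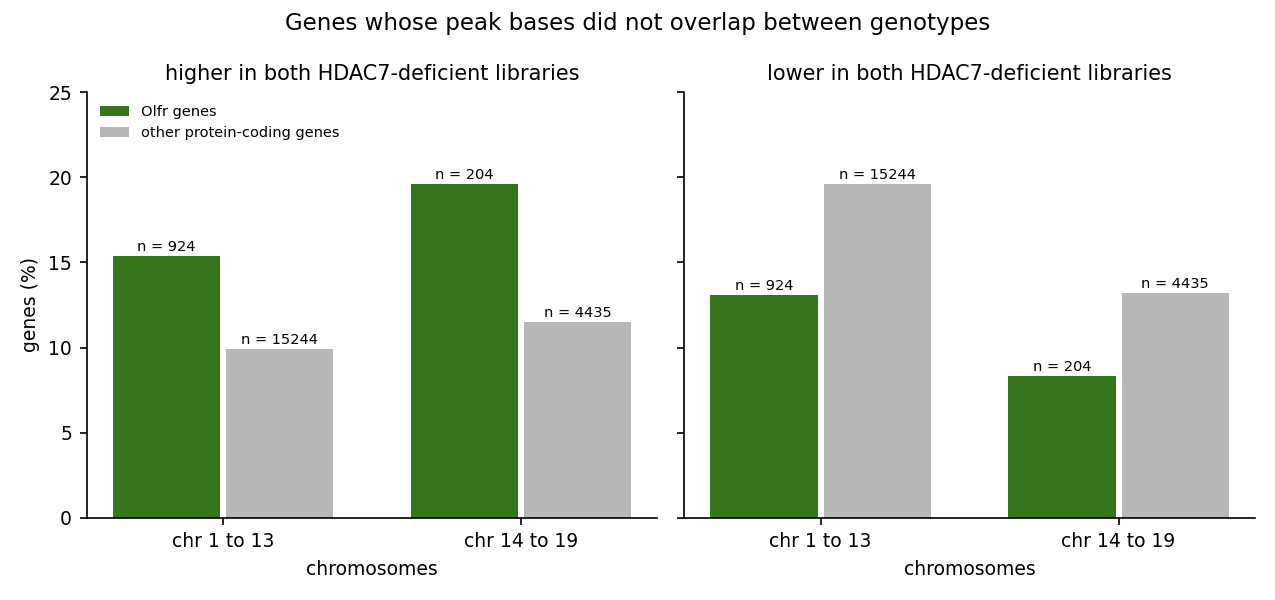
Percent of genes whose peak bases did not overlap between genotypes, higher (left) or lower (right) in both HDAC7-deficient libraries, for Olfr genes and other protein-coding genes on chromosomes 1 to 13 and 14 to 19. The bars carry the number of genes, and the Olfr bars are taller than the grey bars on the left and shorter on the right in both sets of chromosomes.

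The genes with the largest gap between the genotypes were spread over several clusters. The gap is the lower value of one genotype minus the higher value of the other. Olfr164 on chromosome 16 had 3011 and 2628 peak bases in the wild-type and 3959 and 5254 in the HDAC7-deficient replicates, in a window of 33961 bp, and it lies on one of the chromosomes on which HDAC7-deficient replicate 2 was raised. Olfr70 on chromosome 4 had 1131 and 1080 against 2046 and 2106. Olfr494, Olfr812 and Olfr463 followed, with gaps of 803, 796 and 759 bases, and in all 5 of these genes at most 12.3% of the window lay under wild-type peaks. In Olfr463, whose window is rich in CpG at 11.4 per kb, 3 regions were gained, the widest of 674 bp.

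In the other direction Olfr310 stood out. This gene at the edge of a cluster on chromosome 7 had 1804 and 2272 peak bases in the wild-type replicates and 563 and 76 in the HDAC7-deficient replicates, which is 14.2% and 17.9% of its window against 4.44% and 0.599%. Olfr282 had 2925 and 2814 against 1632 and 1951. Olfr765, Olfr804 and Olfr1183 followed, with gaps of 799, 771 and 702 bases. These 10 genes were picked for their gaps, so that the values describe them and test nothing.

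Sequences are shown for the gene at each end, with the CpG dinucleotides in capitals. Each comes from the middle of the widest region that was in both libraries of one genotype and neither of the other. The region of Olfr310 had wild-type peaks of 491 and 808 bases and none in the HDAC7-deficient libraries, and the part shown is on the + strand, opposite to the gene, at chr7:86274352-86274651 of GRCm38. The region of Olfr164 had peaks of 60 and 310 bases in the HDAC7-deficient libraries and none in the wild-type libraries, and the part shown is on the + strand, opposite to the gene, at chr16:19314863-19315162. It lies in the 2 kb beside the gene body and is a small part of the 3959 and 5254 peak bases of the window in these libraries. Of that window 58.5% was masked as repeats. Each part shown holds 1 CpG in 300 bp.
Olfr310: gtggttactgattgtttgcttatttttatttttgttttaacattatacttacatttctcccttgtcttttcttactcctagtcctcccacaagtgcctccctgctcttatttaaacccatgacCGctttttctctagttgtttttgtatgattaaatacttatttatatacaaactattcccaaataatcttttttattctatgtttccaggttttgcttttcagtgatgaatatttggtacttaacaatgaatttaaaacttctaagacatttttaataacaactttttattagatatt
Olfr164: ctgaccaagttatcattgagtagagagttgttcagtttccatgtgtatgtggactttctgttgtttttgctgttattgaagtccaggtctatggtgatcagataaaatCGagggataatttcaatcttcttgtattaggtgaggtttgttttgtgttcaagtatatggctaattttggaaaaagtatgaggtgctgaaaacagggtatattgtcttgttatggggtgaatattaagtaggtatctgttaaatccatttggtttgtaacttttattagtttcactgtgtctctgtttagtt

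Counted by region, the olfactory receptor windows gained more than they lost, as did all regions together, and their shares were near those of all regions. Overlapping peaks of the 4 lists were joined into regions. A gained region held peaks of both HDAC7-deficient libraries and none of the wild-type ones, and a lost region the reverse. Of 11512 regions that met the windows, 369 (3.21%) were gained, against 2.91% of all regions on chromosomes 1 to 19, and 230 (1.998%) were lost, against 2.43%. Gained regions were thus 1.604 times the lost ones, against 1.19 times over all regions. Gained regions lay in the windows of 324 members and lost regions in those of 208. On chromosomes 1 to 13 alone there were 302 gained and 184 lost regions. No count over all regions of these chromosomes, or over other genes that hold such regions, is set beside these numbers. Whether they are particular to the olfactory receptor windows is therefore not shown. Regions in all 4 libraries made up 14.8% in the olfactory receptor windows against 12.6% over all, and regions of 1 library alone 48.3% against 52.7%. These shares come from lists of 2 libraries per genotype, so they include regions that differ between any libraries. Without wild-type replicate 1 there were 1216 gained and 2409 lost regions, and without wild-type replicate 2 there were 783 and 1187. Without HDAC7-deficient replicate 1 there were 2022 gained and 795 lost, and without HDAC7-deficient replicate 2 there were 1608 and 545. A genotype left with 1 library needs a peak in that list alone, which raises the count of regions particular to it. These counts therefore cannot show whether the order of gained and lost regions holds.

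Whole clusters seldom separated the genotypes. Of the 58 clusters of 2 or more genes, 4 had more peak bases in both HDAC7-deficient libraries and 1 had fewer, and each of the 5 held at most 4 genes. On chromosomes 1 to 13 alone 3 had more and 1 had fewer. The balance changed with scaling, to 5 higher and 5 lower after division by each library's total over chromosomes 1 to 19, an alternative chosen after seeing the data, and to 9 and 1 with the total over chromosomes 1 to 13. Olfr372 to Olfr374 on chromosome 8 had 9768 and 8917 bases in the wild-type and 11695 and 10802 in the HDAC7-deficient replicates. Olfr417 to Olfr220 on chromosome 1, the cluster with fewer, had 8048 and 8054 against 7310 and 7306. The class I array overlapped between the genotypes, with peak bases of 100548 and 116968 against 104007 and 115493 in its gene windows (ratio 1.009 ± 0.131, exact permutation p = 1). Relative to chromosomes 1 to 19 of the same library its windows did not overlap, with a peak density of 1.08 and 1.13 for wild-type against 1.18 and 1.16, and 1.135 and 1.154 against 1.187 and 1.155 times the share covered (exact permutation p = 0.333 for each, the smallest possible).

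Of 8 receptors with known ligands or well-studied expression, 2 were higher in both HDAC7-deficient libraries and 0 were lower, against 10.6% and 17.8% of all protein-coding genes. Olfr78, a class I receptor for short organic acids that is also expressed in the kidney and the carotid body, had 2309 and 2807 peak bases in the wild-type and 2979 and 4293 in the HDAC7-deficient replicates, without overlap. Olfr1507 also did not overlap, with 325 and 236 bases against 537 and 693, on chromosome 14 with its raised replicate. Olfr2 (the I7 receptor), Olfr16 (MOR23), Olfr17 (P2), Olfr73 (mOR-EG), Olfr160 (M72) and Olfr544 overlapped between the genotypes. Olfr160 had 10.95% and 13.8% of its window covered in the wild-type and 25.3% and 12.5% in the HDAC7-deficient replicates, and Olfr2 had 11.02% and 24.98% against 19.02% and 13.7%. Olfr151 (M71) is a polymorphic pseudogene in the annotation and was not a member.

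Promoters of the olfactory receptor genes were less covered than those of other genes. RefSeq promoters of GRCm38, 250 bp before to 50 bp after the start site, were found for 925 members (929 sequences). Peaks covered 4.59%, 7.17%, 4.73% and 8.44% of their bases. The promoters of other protein-coding genes were covered to 9.52%, 11.1%, 9.95% and 8.88%, so that the ratio was 0.639 ± 0.223 and below 1 in 4 of 4 libraries, although it was 0.951 in HDAC7-deficient replicate 2. The other promoters hold 54.9 CpG per kb and those of the members 4.27.

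The promoters of the members were searched on both strands for CCCNNGGG, the core of the site bound by EBF factors, which act in B cell commitment as well as in olfactory neurons, and for TAATTA, the core of homeodomain sites such as those of LHX2. CCCNNGGG was found in 28 member promoters (3.01%), against 13.9% of all promoters, and TAATTA in 174 (18.7%), against 5.27% of all promoters. The member promoters had 36.04% G or C, against 53.6% in all promoters. The part of this base composition in both motif contrasts was not tested. A peak in all 4 libraries met 27 member promoters (2.91%), against 5.47% of all promoters. Among them were 2 of the 28 with CCCNNGGG (7.14%, against 2.77% of the member promoters without it). For TAATTA it was 4 of the 174 (2.30%, against 3.05% of those without it). Counted for the members alone, 4 promoters had a peak over the start site itself in all 4 libraries. The first of them is shown because it holds a TAATTA match, in capitals, and it belongs to Olfr1510 in the cluster at the start of the T cell receptor alpha segments. It is on the - strand at chr14:52410878-52411177, holds no CpG and lay under 288 and 257 peak bases in the wild-type and 240 and 171 in the HDAC7-deficient replicates.
Olfr1510: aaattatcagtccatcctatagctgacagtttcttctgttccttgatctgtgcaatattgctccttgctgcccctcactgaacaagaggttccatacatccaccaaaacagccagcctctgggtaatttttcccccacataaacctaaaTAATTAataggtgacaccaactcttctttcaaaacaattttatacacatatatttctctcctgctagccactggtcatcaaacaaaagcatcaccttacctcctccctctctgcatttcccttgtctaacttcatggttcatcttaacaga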

How the data were processed

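The deposited files are 4 lists of peak positions (chromosome, start and end), 1 per hMeDIP-seq library, on mm10. Per the labels the authors trimmed reads with cutadapt 1.6 run through Trim Galore (version 0.4.2), and the processing notes list Bowtie2, deepTools and MACS2, whereas the study's methods name bwa as the aligner. Peaks were called per library on normalised signal by the bdgpeakcall step of MACS2, with a signal of 250 or more over at least 10 bp and gaps of up to 10 bp bridged, so a list shows where the signal passed a fixed value, not how high it was. The methods state that peaks meeting input peaks were removed, and whether the lists are from before or after that step is not given in the sources used here. Input libraries were not analysed here.

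Peaks were counted in a window when they shared at least 1 bp with it, and covered bases were summed over known bases, on chromosomes 1 to 19, with Python 3.11.15, NumPy 2.4.6 and SciPy 1.17.1. CpG was counted in the GRCm38 genome. Genotypes were compared by an exact permutation test that runs through all 6 assignments of the libraries, and ratios within libraries by an exact sign-flip permutation test over 4 log ratios. No adjustment for multiple tests was made, since neither test can pass 0.05. Genes were named when known from the literature, among the 5 with the highest mean share covered, without any peak, or among the 5 with the largest gap in either direction, and clusters and regions when at the ends of their order. The members, lists and rules were chosen with earlier results of these data known. All counting code was tested on simulated lists.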

Additional observations from a re-analysis of the deposited data

How the results depend on the processing

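Of 123 alternatives, 84 were counted as the same, 31 as moved and 8 as reversed. A ratio was the same when it stayed on its side of 1, whatever its size, and reversed otherwise. A count was the same when it stayed within a fixed fold of the reported one, and moved otherwise. The order of paired counts was not part of this rule. With peaks of at least 200 bp, 145 members higher and 147 lower counted as the same as 182 and 138. The ratio of coding sequence to the rest of the window stayed between 1.38 and 1.57 and that of the class I array to the other members between 1.14 and 1.18 when each library was left out. With peaks of at least 200 bp alone, the ratios of HDAC7-deficient to wild-type peaks and bases were 0.998 and 0.997, the density relative to other genes was 1.12, and 1 cluster was higher. Without flanks the relative cover was 0.973 and lost regions numbered 132. With 10 kb on each side the relative density was 1.006, with 719 gained and 452 lost regions in the longer windows. The causes of these reversals were not tested. Scaled to chromosomes 1 to 13, 9 clusters were higher and 1 lower. Scaled to chromosomes 1 to 19, an alternative chosen after seeing the data, 5 were higher and 5 lower. Joined under 50 kb, 2 clusters were lower, and joined under 200 kb, 2 were higher and 0 lower.

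Leaving out each library in turn gave ratios between 0.992 and 1.12 for peaks and between 0.918 and 1.13 for bases. The ratio of bases without wild-type replicate 1 was 0.950. Genes numbered 262 to 487 higher and 244 to 450 lower, clusters 4 to 30 higher and 3 to 32 lower, gained regions 783 to 2022 and lost regions 545 to 2409. Fewer libraries must agree in such counts, and none was below the reported one. With the replicate number as a replicate block the ratios were 1.05 for peaks and 1.02 for bases. Libraries with the same number had deviations that correlated at 0.0638 over the members, with 2 pairs in all. The ratio of coding sequence to the rest of the window did go with the number. It was 1.12 (wild-type) and 1.35 (HDAC7-deficient) in replicate 1, and 1.66 and 1.71 in replicate 2. Whether libraries of the same number share a batch is not stated in the labels and was not tested. Depth is unknown, and a gene of few peaks can change its call with 1 peak.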

Other observations

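Most genes that act with olfactory receptors outside the family overlapped between the genotypes. Of 20 genes listed for olfactory signalling and receptor choice, 19 lie on chromosomes 1 to 19, and 3 were higher in peak bases in the HDAC7-deficient libraries without overlap and 3 were lower, against 10.6% and 17.8% of all protein-coding genes. Lhx2, a homeodomain factor that acts at receptor gene enhancers, had 3306 and 3245 bases in the wild-type and 4786 and 3621 in the HDAC7-deficient libraries. Kdm1a, a histone demethylase needed for receptor choice, had 4729 and 4721 against 5484 and 6456. Rtp1, which carries receptors to the cell surface, had 1079 and 1001 against 1754 and 1235. It lies on chromosome 16, one of those on which HDAC7-deficient replicate 2 was raised.

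The 3 lower genes were Adcy3, the adenylyl cyclase of odour signalling, Cngb1, a subunit of the olfactory cation channel, and Omp, a marker of mature olfactory neurons. Adcy3 had 8932 and 9373 peak bases against 8001 and 8579, Cngb1 had 8245 and 8407 against 7579 and 7510, and Omp had 380 and 729 against 150 and 169. Ebf1, which B cells and olfactory neurons both use, had 39904 and 53085 against 46871 and 51711, so its genotypes overlapped.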
